A study of Sus scrofa with 6 samples.

Results

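Among the 322 pig miRNA probes of the array, 5 read miR-126, miR-221 or miR-222. These were picked by name, with earlier results of these data known. They are miR-126-3p, miR-126-5p, miR-221-3p, miR-221-5p and a probe listed as miR-222 with no arm. Left atrial (LA) RNA was measured on 1 array per animal in 3 sham and 3 paced pigs, dyed with Cy3. The paced group (labelled PAF, for paroxysmal atrial fibrillation) had received bursts of rapid right atrial pacing after esmolol, a beta blocker. The sham group (labelled sham-control) was operated on without burst pacing, and the LA was taken on the day after the procedure in both. The study's methods describe Large White pigs of 3 months, whereas the sample labels speak of neonatal piglets. The model covers brief self-terminating fibrillation in animals with no other heart disease, and each sample is whole LA tissue, so no signal below can be assigned to a cell type.

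Endothelial cells line the vessels and the inner face of the heart. miR-126 lies in an intron of EGFL7, a gene of these cells, and is best known as their most abundant miRNA. Its 3p strand restrains SPRED1 and PIK3R2, brakes on VEGF signalling, and VCAM1, an adhesion molecule for leukocytes. The 5p strand of the same hairpin is known for acting on DLK1, which holds back endothelial proliferation. miR-221 and miR-222 are processed from a common transcript, and both are known for targeting the stem cell factor receptor KIT and the cell cycle inhibitor CDKN1B, limiting growth in endothelium and promoting it in vascular smooth muscle. In the Sscrofa11.1 gene table MIR221 and MIR222 lie on chromosome X and are each other's only neighbour within 10 kb.

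The array files give the target of each probe 5′ to 3′, shown here with the seed, bases 2 to 8, in capitals, because the seed decides which probes stand for miRNAs with shared targets.

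miR-126-3p: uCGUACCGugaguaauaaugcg

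miR-126-5p: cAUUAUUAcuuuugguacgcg

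miR-221-3p: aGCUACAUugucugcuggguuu

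miR-221-5p: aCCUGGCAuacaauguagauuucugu

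miR-222: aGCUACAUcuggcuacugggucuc

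The targets of miR-221-3p and miR-222 begin with the same 8 bases and hold the same seed, GCUACAU, which no other of the 322 targets holds. Beyond that start the sequences part, with identical bases at 3 of the 14 remaining positions compared. The seeds of miR-126-3p, miR-126-5p and miR-221-5p were each found in a single target. The targets ran from 21 nt (miR-126-5p) to 26 nt (miR-221-5p), where the median of all targets was 22 nt. Their GC content ran from 38.1% (miR-126-5p) to 54.2% (miR-222), around a median of 47.6%.

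Each probe was spotted 9 times per array, and 786 empty spots per array gave the background. The empty-spot median ranged from 64.7 to 214 scanner units in sham animals and from 242.5 to 399 in paced animals, so the background was higher on every paced array. The limit for a signal well above background was set at 3 SD of the empty spots over their median, and on all 6 arrays 104 of the 322 probes passed it. Values per animal are listed below in the order of replicates 1, 2 and 3, and means are given with the SD over the 3 animals of a group. Of the 5 probes, miR-126-3p, miR-221-3p and miR-222 were among the 104, and miR-126-5p and miR-221-5p were well above background on no array, as were 143 probes in all. As a check of the tissue, 5 of 7 probes of cardiomyocyte miRNAs (miR-1, miR-133a-3p, miR-133a-5p, miR-133b and miR-499-5p) were well above background throughout.

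**Figure D1:**
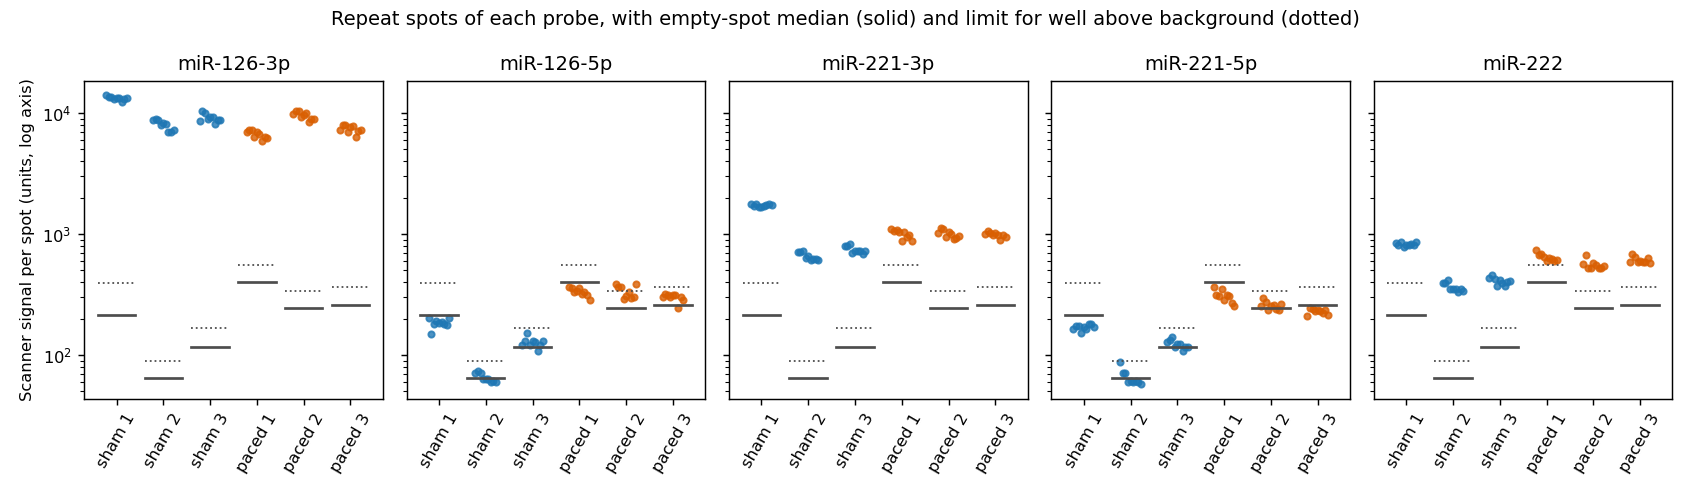
Scanner signal of the 9 repeat spots of each probe (dots, log axis, scanner units) on the 3 sham and 3 paced arrays, with the median of the empty spots of that array (solid line) and the limit for well above background (dotted line). The dots of miR-126-3p, miR-221-3p and miR-222 lie above the dotted line on all 6 arrays, and most of those of miR-126-5p and miR-221-5p lie near or under the solid line.

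The strand of miR-126 that restrains SPRED1 and VCAM1 gave a strong signal on every array. The scanner medians of miR-126-3p were 13318, 8152 and 8912 units in the sham animals. In the paced animals they were 6657, 9544 and 7279 units. Each was at least 16.7 times the empty-spot median of its array, and the 9 repeat spots of an array varied by 3.28% to 9.50% (SD over mean).

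After background correction, quantile normalization between arrays and log2 transformation, miR-126-3p read 13.30, 13.04 and 13.05 in the sham animals. The paced animals read 13.21, 13.12 and 12.99. Sham replicate 1 was the highest animal and paced replicate 3 the lowest, the groups overlapped, and all 6 animals lay within 0.31 log2 units. Sham animals averaged 13.13 ± 0.14 and paced animals 13.11 ± 0.11. By limma the log2 difference, paced minus sham, was -0.02 (SE 0.10, adjusted p = 0.935), smaller than the spread between animals. Its 95% interval of -0.26 to 0.21 corresponds to 0.833 to 1.16 times the sham level. In bulk tissue, fewer cells of a type and less of the miRNA per cell cannot be told apart, and this holds for every level given here. Without normalization between arrays the difference was -0.38 (adjusted p = 0.614), and when each array was scaled by its median over the detected probes it was -0.21 (adjusted p = 0.366).

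The processed intensities deposited by the authors also overlapped between the groups for this strand. Sham animals stood at 9337, 8316 and 8543 and paced animals at 8422, 8575 and 7813. The sham animals averaged 8732 ± 536 and the paced animals 8270 ± 403. The spread of miR-126-3p within the groups, after quantile normalization, was at percentile 28.8 of that of the 104 probes well above background. Its pooled SD was 0.13 on the log2 scale, where the median of these probes was 0.16. Probes of like mean signal had pooled SDs of 0.08 (miR-30c-5p), 0.11 (miR-23a), 0.13 (miR-22-3p) and 0.50 (miR-1), so this percentile is not particular to miR-126-3p.

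**Figure D2:**
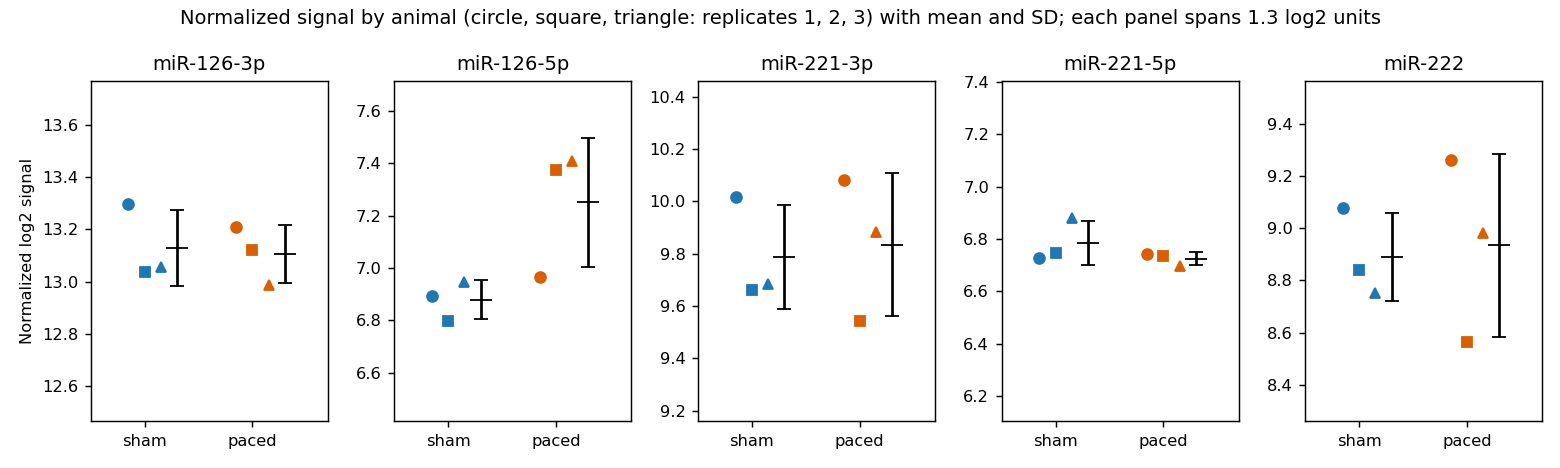
Normalized log2 signal of the 5 probes in sham (blue) and paced (orange) animals, where circles, squares and triangles are replicates 1, 2 and 3, and the bar gives the group mean and SD (n = 3). Sham and paced animals overlap for miR-126-3p, miR-221-3p, miR-221-5p and miR-222, and for miR-126-5p the lowest paced animal, at 6.97, lies just above the highest sham animal, at 6.95.

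The seed pair, regulators of KIT and CDKN1B, did not separate paced from sham animals. The scanner medians of miR-221-3p were 1735, 635 and 725 units in the sham animals and 1033, 996 and 986 units in the paced animals. They were 2.59 to 9.83 times the empty-spot median. On the normalized log2 scale the sham animals read 10.02, 9.66 and 9.68. The paced animals read 10.08, 9.54 and 9.88. Replicate 1 was the highest animal of each group, and paced replicate 2 was the lowest of all. Sham animals averaged 9.79 ± 0.20 and paced animals 9.84 ± 0.27. The log2 difference, 0.05 (SE 0.16, adjusted p = 0.912 in limma), lay within the spread between animals, with a 95% interval of -0.33 to 0.43, or 0.794 to 1.35 times the sham level.

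For miR-222 the scanner medians were 815, 354 and 405 units in the sham animals and 639, 543 and 592 units in the paced animals. The smallest margin was on paced replicate 1, where the median was 1.60 times the empty-spot median and 4.78 SD above it. Normalized, the sham animals read 9.08, 8.84 and 8.75 on the log2 scale. The paced animals read 9.26, 8.56 and 8.98. Paced animals thus held both the highest and the lowest value, and every sham animal lay between them. Sham animals averaged 8.89 ± 0.17 and paced animals 8.93 ± 0.35. Their log2 difference of 0.04 (SE 0.18, adjusted p = 0.934 in limma) did not reach the spread between animals, and its 95% interval ran from -0.39 to 0.48, or 0.764 to 1.39 times the sham level.

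The sign of both differences rested on single animals. Without paced replicate 1 they were -0.07 for miR-221-3p and -0.12 for miR-222, and without paced replicate 2 they were 0.20 and 0.22. No adjusted p fell below 0.549 for either probe in any setting tried. In the authors' processed intensities miR-221-3p averaged 771 ± 176 in sham and 792 ± 158 in paced animals. miR-222 averaged 354 ± 43.4 in sham and 363 ± 93.4 in paced animals.

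Across the 6 animals miR-221-3p and miR-222 moved together. Relative to the probe's own mean over the arrays, paced replicate 1 lay at 0.27 for miR-221-3p and 0.35 for miR-222. Sham replicate 1 lay at 0.21 and 0.17, and paced replicate 2 at -0.27 and -0.35. Likeness was measured as the root mean square difference of such centred log2 values over the 6 arrays. By this measure each was the nearest of 103 other probes to the other, at 0.059, where the median distance was 0.21 from miR-221-3p and 0.24 from miR-222. miR-185 came next for both, at 0.10 and 0.10. The next after it was let-7i for miR-221-3p, at 0.11, and for miR-222 it was miR-146a-5p, an miRNA of inflammatory signalling, at 0.10. Arrays share their normalization and animals, so these distances are descriptions and were not tested.

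The distance between the probes on an array was therefore steady. The log2 value of miR-221-3p minus that of miR-222 was 0.94, 0.82 and 0.93 in the sham animals and 0.82, 0.98 and 0.90 in the paced animals. The sham mean of 0.90 ± 0.07 and the paced mean of 0.90 ± 0.08 differed by 0.004, within the spread between animals (two-sided exact permutation test over 20 splits, p = 0.9, where the design allows no p below 0.1). The size of this distance depends on the probes and says nothing of the ratio of the miRNAs.

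miR-126-3p lay on the same side of its mean as the seed pair in the 3 sham animals and in paced replicate 1. In paced replicate 2 it lay at 0.004, where miR-221-3p and miR-222 were at -0.27 and -0.35. In paced replicate 3 it lay at -0.13 and the seed pair at 0.07 each. In likeness to miR-126-3p, miR-221-3p ranked 47 of 103 probes, at 0.16, and miR-222 ranked 70, at 0.20, whereas miR-126-3p ranked 20 in likeness to miR-221-3p and 29 to miR-222. The probes nearest to miR-126-3p were miR-99a at 0.069, miR-152 at 0.076 and miR-17-5p at 0.078, against a median distance of 0.17. The differences of these 3 between paced and sham animals were -0.01, 0.02 and 0.03. The pooled SD within the groups was 0.24 for miR-221-3p and 0.27 for miR-222, at percentiles 76.9 and 83.7 of the 104 probes.

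**Figure D3:**
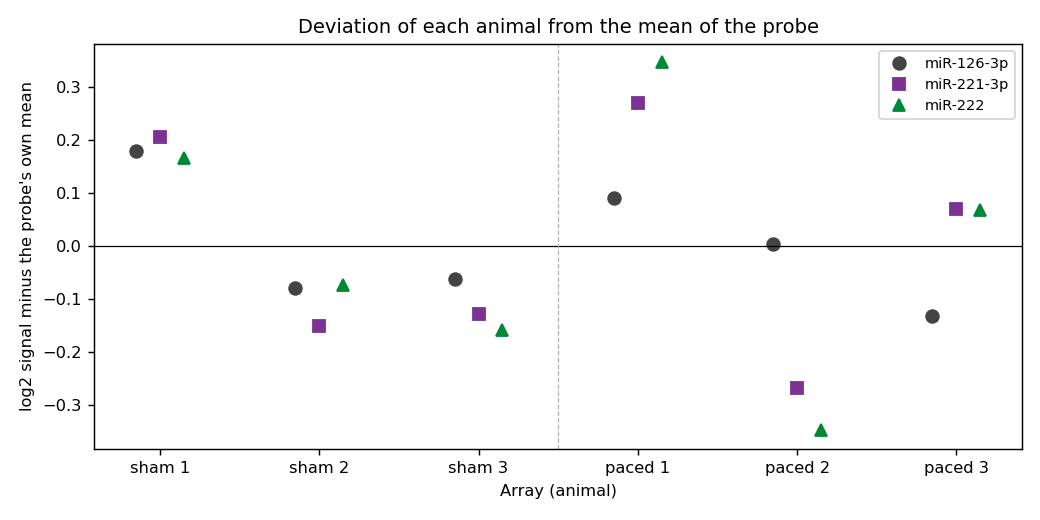
Normalized log2 signal of miR-126-3p (circles), miR-221-3p (squares) and miR-222 (triangles) on each array minus the mean of that probe over the 6 arrays. Squares and triangles lie on the same side of 0 in every animal, from 0.35 for miR-222 in paced replicate 1 to -0.35 in paced replicate 2, while the circle lies near 0 in paced replicate 2 and on the other side in paced replicate 3, at -0.13.

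Of the 5 probes, miR-126-5p, the strand known for acting on DLK1, was the only one with every paced value above every sham value, and it was well above background in none of the 6 animals. Normalized, it read 6.89, 6.80 and 6.95 in the sham animals on the log2 scale. In the paced animals it read 6.97, 7.38 and 7.41. Paced replicates 2 and 3 stood apart, whereas paced replicate 1 lay 0.02 above sham replicate 3. Sham animals averaged 6.88 ± 0.07 and paced animals 7.25 ± 0.25. The log2 difference was 0.37 (SE 0.13) with a 95% interval of 0.07 to 0.68. In limma its unadjusted p was 0.0243 and its adjusted p was 0.360. No fold is given, since both groups lay below the limit.

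It was the only 1 of the 5 probes at an unadjusted p up to 0.05, and 0 of the 5 passed an adjusted p of 0.05. Even the unadjusted p lay above 0.05, from 0.0524 to 0.0815, in 7 of the 18 alternative settings that tested it. These were plain background subtraction, the methods' t-test, the authors' processed values, and leaving out sham replicate 1, sham replicate 2, paced replicate 2 or paced replicate 3. Over all 322 probes 34 reached the unadjusted threshold (10.6%), 11 of them with higher values in paced animals (3.42%), and none passed the adjusted threshold (0%). The groups were free of overlap for 56 probes (17.4%), and for 22 of them the paced values were the higher (6.83%). Among the 143 probes well above background on no array, 18 had every paced value above every sham value (12.6%), and among the 104 well above background throughout there were 0. With 5 probes, a count of 1 cannot be set apart from these shares.

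On the scanner scale, before normalization, the groups overlapped for miR-126-5p once the surrounding background was taken off. Against the 15 nearest empty spots, its median lay at -30.5, -0.72 and 5.50 units in the sham animals and at -61.3, 79.1 and 48.4 units in the paced animals. Paced replicate 1, whose array had the highest background, thus gave the lowest value of all. Only paced replicate 2 passed the limit of 3 SD against these neighbours, at 5.04 SD. With normexp against these neighbours and quantile normalization the log2 difference was 0.49 (adjusted p = 0.374), and with no background correction it was 0.23 (adjusted p = 0.424). Without paced replicate 1 the difference was 0.53 (adjusted p = 0.0138), and without paced replicate 3 it was 0.29 (adjusted p = 0.696). Scaling each array by its median over the detected probes made it 0.98 (adjusted p = 1.84e-05), a setting that raised the median of all probes by 0.44. In that setting limma gave all 5 probes the same SE, 0.19, so this p does not measure the spread of miR-126-5p between animals. The background of the arrays moved with the groups, and its part in the difference was not tested.

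In the authors' processed intensities miR-126-5p was at 5.42, 0.422 and 9.07 in the sham animals and at 11.4, 48.6 and 51.7 in the paced animals, also without overlap. On the log2 scale this was a difference of 3.48 (SE 1.38, adjusted p = 0.483 in limma), where the median processed intensity of a sham array was 48.7 to 59.2. In the same values miR-221-5p, also a probe at background, differed by -3.01 in the other direction (adjusted p = 0.585). The log2 distance between the strands of miR-126 on an array (5p minus 3p) differed by 0.40 between paced and sham animals (two-sided exact permutation test, p = 0.3). The 5p strand in this distance was at background. Over the other settings the difference ran from 0.26 to 3.55. The permutation p was 0.1, the lowest the design allows, with cyclic loess, scaling to the detected probes, no normalization and the authors' processed values, and without paced replicate 1. Scaling shifts both probes of an array alike, so with it and with no normalization the difference was the same, 1.19, and these settings count as 1.

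For miR-221-5p, the strand opposite miR-221-3p on its hairpin, the scanner medians were 0.777 to 1.05 times the empty-spot median of their array. Normalized, it read 6.73, 6.74 and 6.88 in the sham animals and 6.74, 6.74 and 6.70 in the paced animals on the log2 scale, with overlap between the groups. The log2 difference, -0.06 (SE 0.07, adjusted p = 0.788), had a 95% interval of -0.23 to 0.11 and is that of a probe at background. It turned to 0.47 (adjusted p = 0.0266, from the SE common to all 5 probes) when each array was scaled by its detected probes. This was near the shift of 0.44 of the median probe in that setting. Measured against the nearest empty spots, its median lay below them on all 6 arrays.

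**Figure D4:**
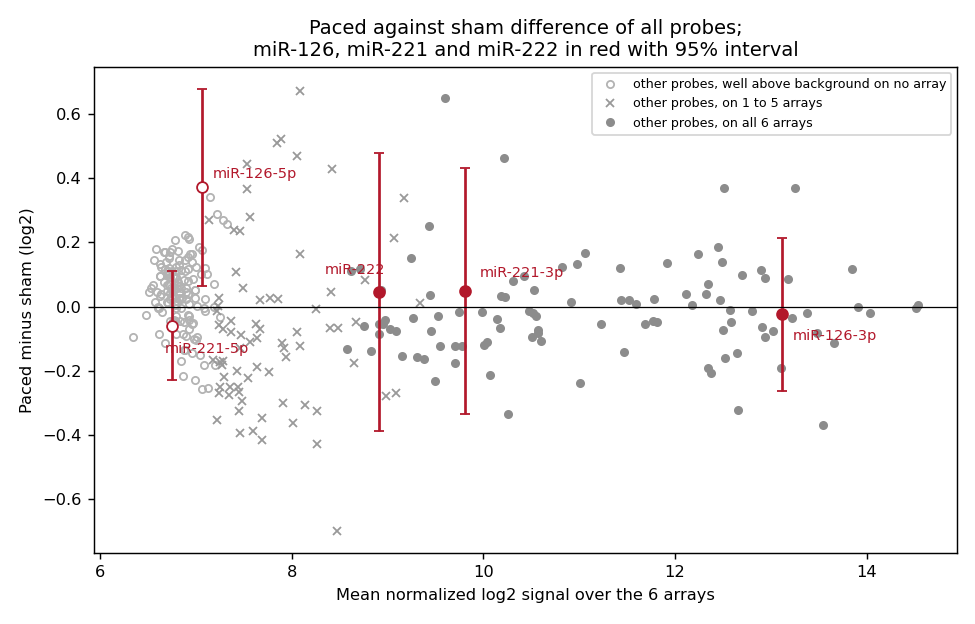
Paced minus sham difference (log2) of all 322 probes against their mean normalized log2 signal, with miR-126, miR-221 and miR-222 in red and their 95% intervals, filled where the probe was well above background on all 6 arrays. The filled red points lie between -0.02 and 0.05, and the interval of miR-126-5p, at 0.37, is the only red interval that leaves out 0.

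Other miRNAs known from endothelium and vessel growth, 29 names on a list that was fixed with earlier results of these data known, had 39 probes besides those above. Of these, 15 were well above background on all arrays and 8 on none. At an unadjusted p up to 0.05, 0 were higher and 4 lower in paced animals, and 0 passed the adjusted threshold. The median difference was 0.001, against 0.002 over all 322 probes, and 20 of the 39 differences were positive. Over all 322 probes 23 were lower at this threshold (7.14%), and 4 of 39 is too small a count to be set apart from that share. The lowest p values were those of miR-24-2-5p and miR-27b-5p, whereas miR-24-1-5p, also a 5p strand of miR-24, differed by 0.001 and was well above background on no array. miR-24-2-5p averaged 7.79 ± 0.06 in sham and 7.40 ± 0.13 in paced animals, which differed by -0.39 (SE 0.09, adjusted p = 0.148), and it passed the background limit on 2 sham arrays and 1 paced array. miR-27b-5p passed that limit on 2 sham arrays and on no paced array and differed by -0.27 (SE 0.07, adjusted p = 0.175). The limit was 89.7 to 396 units on sham and 335 to 550 on paced arrays, so these array counts depend on the background as well as the signal.

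Markers of the other cells in LA tissue were read beside the vascular miRNAs. Of 7 cardiomyocyte probes 0 reached an unadjusted p up to 0.05, nor did any of 5 fibroblast probes (miR-199a, miR-199b, miR-214). The same held for 8 leukocyte probes (miR-142, miR-150, miR-146a, miR-146b, miR-155), a list whose miR-223 had no probe. The lowest p values in these lists were those of miR-133a-5p at -0.33 (adjusted p = 0.474) and miR-1 at 0.37 (adjusted p = 0.731), of miR-199a-5p at -0.19 (adjusted p = 0.612) and miR-199a-3p at -0.07 (adjusted p = 0.864), and of miR-142-5p at -0.10 (adjusted p = 0.654) and miR-155-3p at 0.09 (adjusted p = 0.705). The last pair was well above background on no array, as were 4 of the 8 leukocyte probes in all. The miR-155 probes were also counted in the endothelial list. Among the cardiomyocyte probes, miR-133a-3p and miR-133b had the highest mean signals of the array. Quantile normalization gives every array the same top values, so their differences, 0.004 and -0.004, were bound to lie near 0. In smooth muscle 1 of 4 probes reached it, miR-143-3p at -0.32 (adjusted p = 0.309), and miR-145-5p followed at -0.11 (adjusted p = 0.726). All 4 smooth muscle differences were negative, with a median of -0.12, against 0.002 over all probes. miR-143-5p, at -0.03, passed the background limit in no animal. The summed linear signal of the 4 did not overlap between the groups. It was 19625 to 23393 in sham and 17493 to 19440 in paced animals. This sum came mostly from miR-145-5p and miR-143-3p, with mean log2 signals of 13.66 and 12.66, against 8.09 for miR-145-3p. Of the 4, only miR-143-3p was itself without overlap. The sum is made of the same probes and was not tested. Over all probes 17.4% were without overlap and 10.6% reached the unadjusted threshold. With 4 probes, a count of 1 cannot be set apart from these shares. In red cells 1 of 3 probes reached an unadjusted p up to 0.05, miR-486 at -0.70 (adjusted p = 0.148). miR-451, the main miRNA of these cells, was at -0.37 (adjusted p = 0.507). The third probe, miR-144, was at 0.006 and well above background on no array. Here too the count is too small to be set apart from the share over all probes. The summed linear signal of the 3 red cell probes ran from 12427 to 17302 in sham and from 8419 to 12528 in paced animals, with overlap. The part of smooth muscle and blood content in the values of the vascular miRNAs was not tested.

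**Figure D5:**
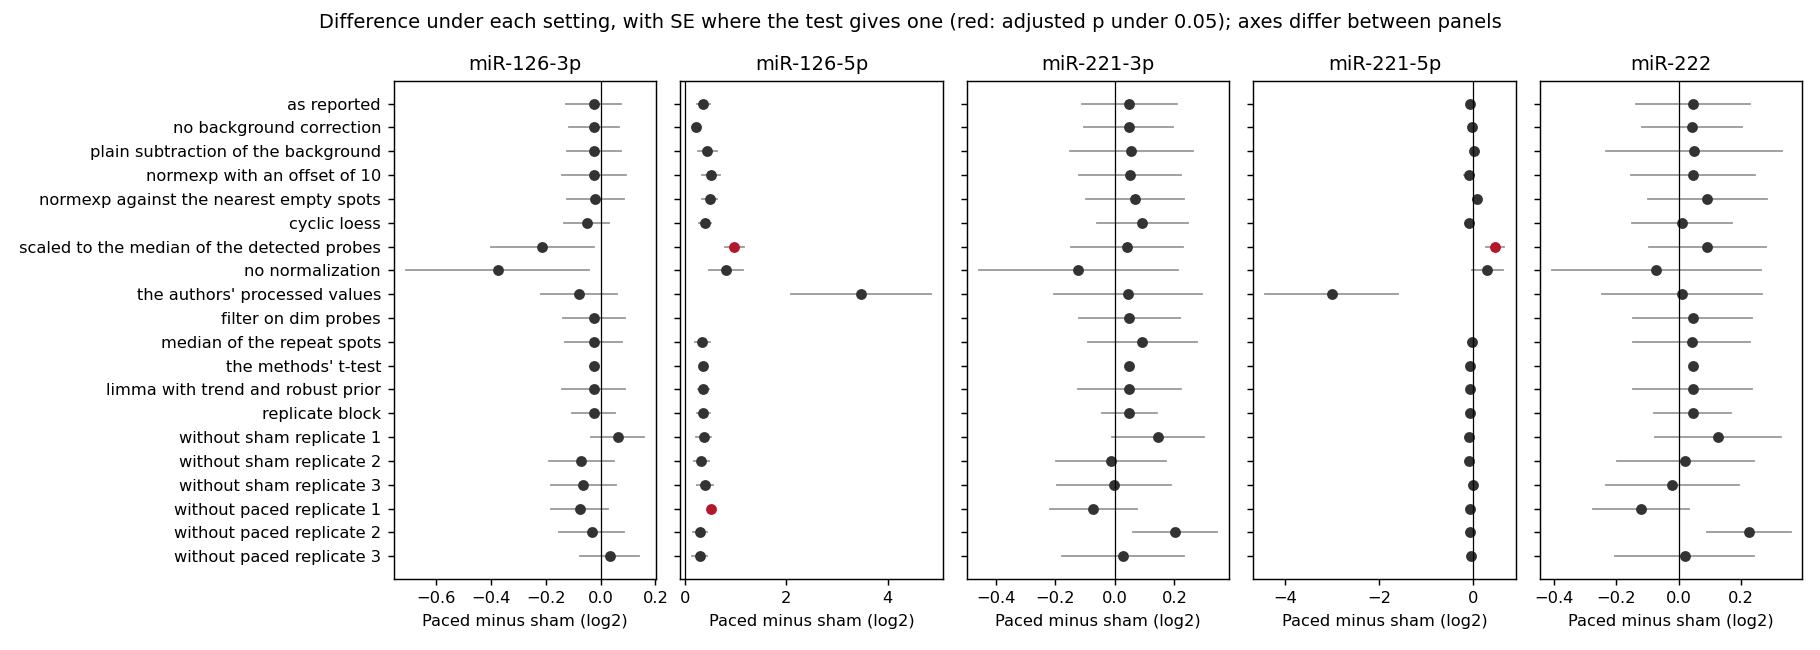
Paced minus sham difference (log2, with SE where the test gives it) of each probe under every setting tried, in red where the adjusted p was under 0.05, with a different axis in each panel. No red point appears for miR-126-3p, miR-221-3p or miR-222, whose values cross 0 in some settings, while miR-126-5p stays above 0 throughout, from 0.23 to 3.48.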

How the data were processed

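The members and gene lists were chosen with earlier results of these data known. The authors hybridized LA RNA of 6 animals, unpooled, to the LC Sciences pig array and deposited the median intensity of each spot, linear and uncorrected. They also deposited processed intensities, 1 per probe and array, whose background removal and normalization are not named in the sources used here. Those entered only as an alternative.

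The 3968 spots of each array were corrected with normexp (offset 50), 1070 control spots were dropped, and the other 2898 were quantile-normalized, put on a log2 scale and averaged per probe. Groups came from the sample titles. limma 3.58.1 (R 4.3.3) tested paced against sham over 322 probes with Benjamini-Hochberg adjustment, and the code was tested on simulated data. The number of arrays limits precision. The text names all 5 probes, the 3 nearest to each detected probe, probes sharing a seed, and the 2 lowest p values per list. Sequences are the targets in the array files. Figures used Python 3.11.15 and matplotlib 3.10.9.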

Additional observations from a re-analysis of the deposited data

How the results depend on the processing

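Each choice was changed alone, and in no setting did miR-126-3p, miR-221-3p or miR-222 pass an adjusted p of 0.05. Leaving out animals moved the differences from -0.075 to 0.064 for miR-126-3p, from -0.073 to 0.20 for miR-221-3p and from -0.12 to 0.22 for miR-222. Without normalization miR-221-3p was at -0.12 and miR-222 at -0.071. The difference of miR-221-5p, a probe at background, turned to 0.023 with plain subtraction, 0.087 against the nearest empty spots, 0.47 with scaling to the detected probes (adjusted p = 0.0266) and 0.31 without normalization, where the median probe shifted by 0.44 and 0.27 under the latter settings. With the authors' processed values it was -3.01. Of the 5 probes, 2 passed the adjusted threshold with that scaling, where 171 of all 322 did. With an animal left out 0 to 1 passed, the 1 without paced replicate 1, where 9 of 322 did. With 5 probes, these counts cannot be set apart from those over all probes. With that scaling limma gave the 5 probes a common SE of 0.19, and without normalization 0.33, so these p values do not measure the spread of each probe. The distance of miR-221-3p to miR-222 differed between groups by -0.023 against the nearest empty spots, by -0.052 with that scaling and without normalization, by 0.050 with the median of the repeat spots, by 0.081 with cyclic loess, and by -0.035 to 0.048 with an animal left out. For miR-221-5p against miR-221-3p it was 0.019 against the nearest empty spots, 0.43 with that scaling and without normalization, -3.05 with the authors' processed values and -0.26 to 0.0082 with an animal left out. Scaling an array leaves such a distance unchanged, so that setting and no normalization are the same test here.

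With the replicate number as a block (replicate block), the differences were those of the unblocked fit and no call changed (miR-126-5p, SE 0.12, adjusted p = 0.311). The SE fell to 0.09 for miR-221-3p (adjusted p = 0.844 in limma) and to 0.12 for miR-222 (adjusted p = 0.907). Deviations of same-numbered animals correlated at 0.18, -0.01 and 0.22 over 104 probes. Replicates 1 and 3 matched their own number best and replicate 2 did not. The sample titles name no pairs, and the numbers were not taken as such. Over all probes, 34 at an unadjusted p up to 0.05 became 181 with scaling to the detected probes, 15 without normalization, 5 with the filter on dim probes, and 20, 69 and 18 without sham replicate 2, paced replicate 1 and paced replicate 3. Past the adjusted threshold the 0 became 171, 9 and 1 with that scaling, without paced replicate 1 and without paced replicate 2. The cause was not tested.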
